A study of Homo sapiens with 6 samples.

Results

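The BCL2 family death regulators described here are 10 genes, PMAIP1, BBC3, BAX, BAK1, BID, BIK, BCL2, BCL2L1, BCL2L11 and MCL1. They were chosen by symbol, as the rows of a deposited FPKM table whose Ensembl gene IDs carry those names in GENCODE release 29, and they are 10 of the 58735 genes in that table. The choice was made with the levels and knockdown differences of these libraries known, so the values and tests of the 10 genes below are a description. All 10 passed a filter on low values (a mean of 1 FPKM or more in the 3 libraries of either line), as did 15638 genes in all. FPKM counts sequenced fragments scaled for gene length and sequencing depth. The length covers all annotated exons of a gene, from 953 bases in BIK to 11765 bases in BCL2. Transcripts of a gene need not hold all of them, so comparisons of levels between genes are approximate.

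The libraries were messenger RNA from 2 human prostate cancer cell lines, H660 and C4-2B MDVR, sequenced as paired ends of 150 bases. In each line 1 library came from cells given PLXND1 siRNA 1, 1 from cells given PLXND1 siRNA 2 and 1 from cells given a control siRNA, which makes 4 knockdown and 2 control libraries. H660 is a model of neuroendocrine prostate cancer. C4-2B MDVR was derived from C4-2B, a luminal line, by growth in enzalutamide, a hormone-signalling inhibitor used against prostate cancer, and PLXND1 encodes Plexin D1, a receptor for semaphorins. The labels give no second library of any treatment within a line and no mention of separate cultures.

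Cells commit to the intrinsic form of apoptosis at the mitochondrial outer membrane, where the BCL2 family decides whether pores open and cytochrome c escapes. BAX and BAK1 encode the effectors that form the pores, while BCL2, BCL2L1 (which encodes BCL-XL) and MCL1 encode guardians that hold the effectors and their activators in check. PMAIP1 (NOXA), BBC3 (PUMA), BCL2L11 (BIM), BIK and BID encode BH3-only proteins, which carry stress signals to the guardians and effectors by means of a short helix called the BH3 motif. In the prostate, BCL2 is known to be scarce in normal luminal cells and abundant in some treatment-resistant and neuroendocrine cancers.

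The BH3 motif was searched for as a leucine, any 3 residues, a glycine or alanine, and an aspartate, in the principal protein of each gene. It was found exactly once in each of the 10 proteins. It is a loose pattern, present in 4841 of 19490 genes with a principal coding sequence (24.8%), so a match is a description and not a site. The coding stretches of 6 members are printed to show what the 3 classes share at the base level, 5′ to 3′, with the codons of the leucine, the glycine or alanine, and the aspartate in capitals. They are the members on which the results below turn.
PMAIP1, codons 26 to 38: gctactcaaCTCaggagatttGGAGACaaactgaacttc
BBC3, codons 138 to 150: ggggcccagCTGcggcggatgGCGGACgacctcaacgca
BAX, codons 60 to 72: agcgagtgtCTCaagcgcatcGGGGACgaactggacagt
BCL2, codons 94 to 106: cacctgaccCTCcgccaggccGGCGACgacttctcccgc
BCL2L1, codons 87 to 99: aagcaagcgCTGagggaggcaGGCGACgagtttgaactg
MCL1, codons 210 to 222: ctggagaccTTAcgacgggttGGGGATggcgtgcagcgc

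Among these, the BBC3 stretch has an alanine codon where the others have a glycine codon. The PMAIP1 stretch had a G and C content of 43.6%, against 74.4% in BBC3 and in BCL2. The proteins around the motif ranged in length, from 54 residues in NOXA to 350 in MCL1. Lengths and stretches come from the principal transcripts of GENCODE release 29 and the human genome build GRCh38.

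The 250 bases before the RefSeq start of PMAIP1 and BAX (build GRCh38.p14) are printed because PMAIP1 lay above the control in the knockdown libraries of both lines and BAX lay on different sides of it in the 2 lines. In PMAIP1 the capitals mark the GC box GGGCGG, read on both strands, and in BAX they mark the E-box CACGTG.
PMAIP1, chr18:59899746-59899995, plus strand: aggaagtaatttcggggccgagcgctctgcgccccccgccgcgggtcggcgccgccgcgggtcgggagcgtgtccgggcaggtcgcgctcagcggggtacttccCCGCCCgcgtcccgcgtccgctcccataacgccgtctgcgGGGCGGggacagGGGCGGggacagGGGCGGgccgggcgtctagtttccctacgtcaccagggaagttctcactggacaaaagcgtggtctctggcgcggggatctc
BAX, chr19:48954625-48954874, plus strand: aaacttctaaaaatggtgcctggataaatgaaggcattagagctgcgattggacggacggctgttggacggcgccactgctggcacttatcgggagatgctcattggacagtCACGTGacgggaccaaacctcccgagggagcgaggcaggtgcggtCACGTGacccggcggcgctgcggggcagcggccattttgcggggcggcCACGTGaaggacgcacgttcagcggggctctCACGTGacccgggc

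The PMAIP1 window held 4 GC boxes, a motif found in 42.3% of 27305 promoter windows of the same length and in 5 of the 8 members with a window. The BAX window held 4 E-boxes, the letters of which occur in 6.49% of those windows and in 2 of the 8 members, and 1 GC box, which is not capitalised. The other member with an E-box was BBC3. TATAAA (11.1% of windows) was present in BCL2L1 and in none of the other windows of members. The near full-length cyclic AMP response pattern TGACGTNA (2.82% of windows) and the C/EBP and ATF element TGATGNAA (3.19%) were in none of the 8 windows. That says only that these letters are not there. Shorter forms of these elements were not counted, so their absence is not shown. No window was matched for BIK and MCL1.

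The libraries held 17655802 to 24105369 fragments assigned to genes. The labelled lines carried their markers, given here as summed FPKM over the range of their 3 libraries. Of 8 neuroendocrine genes the sum was 735 to 763 in H660 and 3.73 to 5.49 in C4-2B MDVR, where 7 of the 8 were under 1 FPKM. Of 8 luminal prostate genes the sum was 392 to 430 in H660 and 660 to 1423 in C4-2B MDVR. In H660 6 of those 8 were under 1 FPKM, so the H660 sum came from the keratin genes KRT8 and KRT18. These keratin genes went against the luminal label. Their means were 255 and 160 FPKM in H660, against 95.5 and 96.5 FPKM in C4-2B MDVR. The 4 immune genes summed to at most 2.33 FPKM and the 4 fibroblast genes to at most 5.39 FPKM in any library. PLXND1 stood at 83.5% and 82.6% of the control with siRNA 1 and siRNA 2 in H660, and at 21.2% and 41.8% in C4-2B MDVR. Mitochondrial transcripts gave 7.44% and 6.83% of fragments in the C4-2B MDVR knockdown libraries against 3.38% in their control, and 9.47% and 9.64% in the H660 knockdown libraries against 8.58%. Their part in the knockdown differences below was not tested.

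Among the guardians, the lines held MCL1 at a like level but BCL2 and BCL2L1 at opposite ones. MCL1, whose protein is short-lived and is the main partner of NOXA, had 56.4 and 53.6 FPKM in the H660 knockdown libraries and 54.9 FPKM in the H660 control, with siRNA 1 given before siRNA 2 here and throughout. In C4-2B MDVR it had 62.3 and 55.2 FPKM in the knockdown libraries and 48.6 FPKM in the control. The libraries of the lines overlapped, and MCL1 had the highest mean of the 10 over the 3 libraries of each line, at 54.9 ± 1.40 FPKM in H660 and 55.4 ± 6.90 FPKM in C4-2B MDVR (SD, n = 3 each). The gene (ENSG00000143384) lies on chromosome 1 from 150574551 to 150579738, minus strand, in GRCh38. By library, PMAIP1 was above MCL1 in both H660 knockdown libraries and below it in the H660 control. The fitted line difference of MCL1 was −0.00 ± 0.12 log2 units (SE, H660 minus C4-2B MDVR), and it turned positive under 6 of 14 alternative settings, up to 0.35.

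BCL2, which encodes the founding guardian and the target of venetoclax, was abundant in H660 and scarce in C4-2B MDVR. It had 14.8 and 13.4 FPKM in the H660 knockdown libraries and 16.2 FPKM in the control, from 4069 to 4731 fragments. The C4-2B MDVR values were 0.232 and 0.419 FPKM in the knockdown libraries and 0.361 FPKM in the control, from 55 to 88 fragments. Every H660 library was above every C4-2B MDVR library, with a mean 44.0 times as high. The gene (ENSG00000171791, chromosome 18, 63123346 to 63320128, minus strand) had a line difference of 3.56 ± 0.12 log2 units. It passed the filter on low values through H660 alone and so had to differ, and the difference is given as a description, with no test. The log2 values are of FPKM + 1, which understates the difference of a gene as low as BCL2 in C4-2B MDVR.

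BCL2L1 went the other way. It had 19.0 and 20.6 FPKM in the H660 knockdown libraries and 20.0 FPKM in the control. Its C4-2B MDVR levels were 60.2 and 45.6 FPKM in the knockdown libraries and 29.6 FPKM in the control, so all 3 libraries lay above those of H660 and the knockdown libraries lay highest. The C4-2B MDVR mean was 2.27 times the H660 mean, and the line difference was −1.09 ± 0.21 log2 units (limma, Benjamini-Hochberg adjusted p = 0.00387). That fit averages over treatments and takes the knockdown effect as equal in both lines. For BCL2L1 the knockdown difference was 0.80 log2 units in C4-2B MDVR and −0.01 in H660. The controls alone, at 29.6 and 20.0 FPKM, lay closer together than the means. The difference fell short of the 1 log2 unit that a call also required after quantile normalization (−0.85), after rescaling to the protein-coding nuclear sum (−0.80), with C4-2B MDVR knockdown replicate 1 left out (−0.90), and also without H660 knockdown replicate 1 (−0.98). BCL2L1 (ENSG00000171552, chromosome 20, 31664452 to 31723989, minus strand) shares 1424 exon bases with the antisense gene ABALON, listed at 0.532 to 1.76 FPKM. Whether the counting used strand is not given in the sources used here, and gene-level values do not separate the death-promoting short form of BCL2L1 from the long one.

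**Figure D1:**
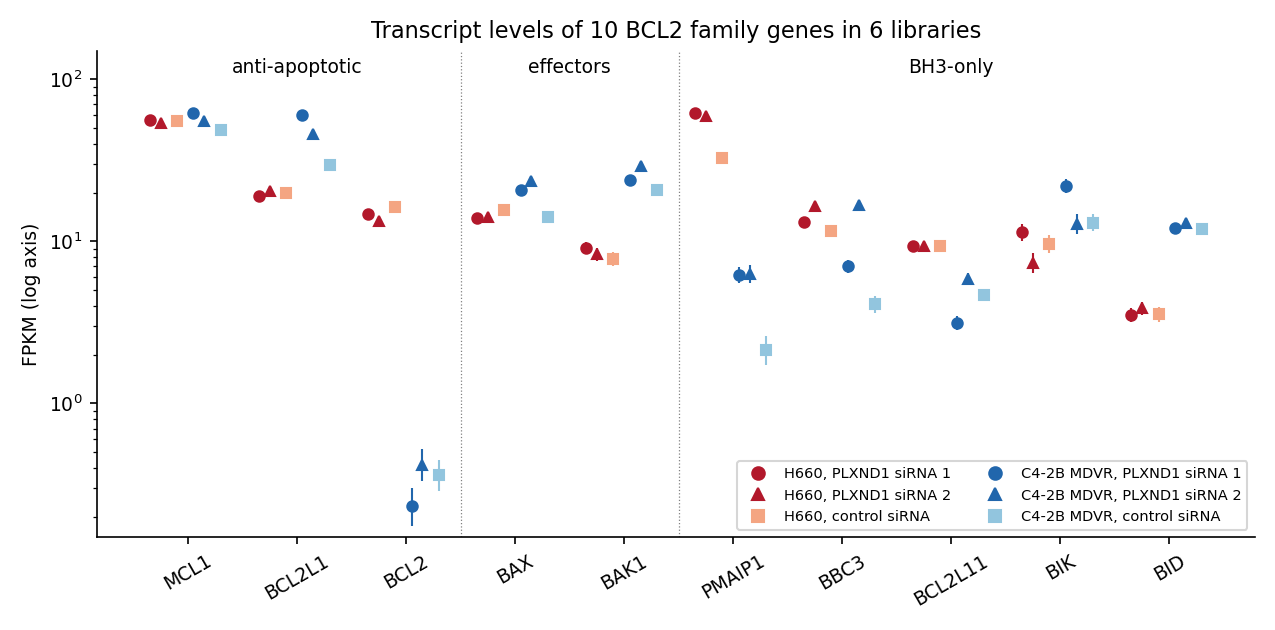
FPKM on a log axis of each of the 10 genes in each of the 6 libraries, grouped by role, with 95% Poisson intervals from the fragment numbers (counting error only). BCL2 lies at 13.4 to 16.2 FPKM in H660 and at most 0.419 FPKM in C4-2B MDVR, PMAIP1 is higher in every H660 library than in any of C4-2B MDVR, and MCL1 lies at 48.6 to 62.3 FPKM throughout.

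Of the effectors, BAK1 was more abundant in C4-2B MDVR, and the line difference of BAX did not pass. BAK1, whose protein sits in the outer membrane before activation, had 9.10 and 8.30 FPKM in the H660 knockdown libraries and 7.78 FPKM in the control. It had 24.06 and 28.97 FPKM in the C4-2B MDVR knockdown libraries and 20.8 FPKM in the control. The lines did not overlap, and the difference of −1.44 ± 0.12 log2 units passed (limma adjusted p = 0.000129), with C4-2B MDVR 2.93 times as high. BAK1 (ENSG00000030110) lies on chromosome 6 from 33572547 to 33580293, minus strand.

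BAX, whose protein moves from the cytosol to mitochondria on activation, had 13.9 and 14.0 FPKM in the H660 knockdown libraries and 15.7 FPKM in the control. In C4-2B MDVR it had 20.7 and 23.5 FPKM in the knockdown libraries and 14.1 FPKM in the control. The controls of the lines were thus close, and the knockdown libraries lay apart. Over all libraries the line difference of −0.37 ± 0.18 log2 units did not pass (limma adjusted p = 0.112). BAX (ENSG00000087088) lies on chromosome 19 from 48954815 to 48961798, plus strand.

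The 5 BH3-only genes divided between the lines. PMAIP1, which encodes the NOXA protein that pairs with MCL1, had 61.9 and 59.7 FPKM in the H660 knockdown libraries and 32.5 FPKM in the control. The C4-2B MDVR values were 6.22 and 6.31 FPKM in the knockdown libraries and 2.14 FPKM in the control, the last from 99 fragments. Every H660 library was above every C4-2B MDVR library, and the H660 mean was 10.5 times as high. The line difference of 3.20 ± 0.11 log2 units passed (limma adjusted p = 5.74e-06). PMAIP1 (ENSG00000141682) lies on chromosome 18 from 59899948 to 59904306, plus strand.

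BCL2L11, which encodes BIM, a strong activator of BAX and BAK1, had 9.39 and 9.36 FPKM in the H660 knockdown libraries and 9.29 FPKM in the control. It had 3.14 and 5.89 FPKM in the C4-2B MDVR knockdown libraries and 4.68 FPKM in the control. The H660 libraries were almost alike and all above those of C4-2B MDVR. The line difference of 0.92 ± 0.20 log2 units had an adjusted p of 0.00647 (limma) but was under the 1 log2 unit of a call. It was called under 4 of 14 alternatives, with a pseudocount of 0.1 (1.06), after the rescaling (1.18), by voom (1.14) and without C4-2B MDVR knockdown replicate 2 (1.12). BCL2L11 (ENSG00000153094, chromosome 2, 111119378 to 111168447, plus strand) shares 727 exon bases with MIR4435-2HG on the other strand, listed at 0.151 to 1.28 FPKM.

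BID, which caspase-8 cleaves to link death receptors to mitochondria, had 3.52 and 3.87 FPKM in the H660 knockdown libraries and 3.54 FPKM in the control. The C4-2B MDVR values were 12.2 and 13.0 FPKM in the knockdown libraries and 11.9 FPKM in the control. The lines were well apart and the libraries within each were close. The line difference of −1.52 ± 0.10 log2 units passed (limma adjusted p = 5.11e-05), with C4-2B MDVR 3.39 times as high. BID (ENSG00000015475) lies on chromosome 22 from 17734138 to 17774770, minus strand.

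BIK, whose protein acts largely from the endoplasmic reticulum, had 11.3 and 7.37 FPKM in the H660 knockdown libraries and 9.66 FPKM in the H660 control, and 21.9 and 12.8 FPKM in the C4-2B MDVR knockdown libraries and 13.1 FPKM in the control. The lines did not overlap, yet the difference of −0.67 ± 0.25 log2 units was not called (limma adjusted p = 0.0503). BBC3, which encodes PUMA, a binder of all the guardians, had 13.1 and 16.4 FPKM in the H660 knockdown libraries and 11.6 FPKM in the control. Its C4-2B MDVR levels were 7.01 and 16.9 FPKM in the knockdown libraries and 4.11 FPKM in the control, so the siRNA 2 library reached the H660 range and the others did not. Its line difference was 0.70 ± 0.34 log2 units (limma adjusted p = 0.115), and it was called without C4-2B MDVR knockdown replicate 2 (1.11, adjusted p = 0.00212). BIK (ENSG00000100290) lies on chromosome 22 from 43110748 to 43129712, plus strand, and BBC3 (ENSG00000105327) on chromosome 19 from 47220822 to 47232766, minus strand.

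In all, 5 of the 10 genes were called different between the lines, where 38.0% of the 15638 genes tested were. PMAIP1 and BCL2, the second admitted through H660 alone, were higher in H660 (20.1% of all genes) and BAK1, BID and BCL2L1 lower (17.9%). The BCL2L1 call averages over treatments, with the limit given above. Of the 10, 7 had no overlap between the 3 libraries of each line, against 74.5% of all genes. The count of calls and that of separated genes were thus near the background of these 2 lines. The median line difference of the 10 genes was −0.19 log2 units, against −0.00 for all genes. Rescaling to the protein-coding nuclear sum moved the median of all genes to 0.24 and the calls to 3917 higher and 2128 lower, against 3143 higher and 2803 lower as deposited. PMAIP1 stayed called higher and BAK1 and BID lower under all 14 alternatives. BCL2 did so too, which is no support, since it passed the filter through H660 alone. A difference in RNA per cell and a difference in the share of cells of a kind cannot be told apart in these bulk libraries.

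Ordered by mean FPKM over the 3 libraries, H660 ran from MCL1 through PMAIP1 (51.4 ± 16.4), BCL2L1 (19.9 ± 0.807), BCL2 (14.8 ± 1.41), BAX (14.5 ± 0.988), BBC3 (13.7 ± 2.44), BIK (9.46 ± 1.99), BCL2L11 (9.35 ± 0.0475) and BAK1 (8.39 ± 0.665) to BID (3.64 ± 0.193; SD, n = 3 each). Neighbours whose libraries overlapped were MCL1 and PMAIP1, BCL2 and BAX, BAX and BBC3, and BIK and BCL2L11. C4-2B MDVR ran from MCL1 through BCL2L1 (45.1 ± 15.3), BAK1 (24.6 ± 4.12), BAX (19.4 ± 4.87), BIK (15.9 ± 5.20), BID (12.3 ± 0.580), BBC3 (9.33 ± 6.68), PMAIP1 (4.89 ± 2.38) and BCL2L11 (4.57 ± 1.38) to BCL2 (0.337 ± 0.0955). There the neighbours that did not overlap were BCL2L1 and BAK1, and BCL2L11 and BCL2. These means pool knockdown and control libraries. PMAIP1 was the highest of the 10 in both H660 knockdown libraries, and in C4-2B MDVR it was above BCL2L11 in both knockdown libraries and below it in the control.

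The make-up of the summed FPKM of the 10 genes differed accordingly. The shares below depend on the choice of these genes, and other family genes are outside the sum. Among those, the BH3-only gene BMF had 91.3 and 93.4 FPKM in the H660 knockdown libraries and 106 FPKM in the control. BOK, an effector relative, had 42.5 and 39.8 FPKM in the C4-2B MDVR knockdown libraries and 46.4 FPKM in the control. The 10 genes summed to 212 and 207 FPKM in the H660 knockdown libraries and 181 FPKM in the control, and to 218 and 209 FPKM in the C4-2B MDVR knockdown libraries and 149 FPKM in the control. BH3-only genes made up 46.7% and 46.8% of that sum in the H660 knockdown libraries and 36.8% in the control, with PMAIP1 alone at 29.2%, 28.9% and 17.9% in the same order. In C4-2B MDVR they made up 23.2% and 26.3% in the knockdown libraries and 24.0% in the control. The effectors made up 10.8% in both H660 knockdown libraries and 12.9% in the control, and 20.5% and 25.2% in the C4-2B MDVR knockdown libraries and 23.4% in the control. The guardians held 42.4% in both H660 knockdown libraries and 50.3% in the control, and 56.3% and 48.5% in the C4-2B MDVR knockdown libraries and 52.6% in the control. These are shares of transcript levels, which need not follow the proteins.

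**Figure D2:**
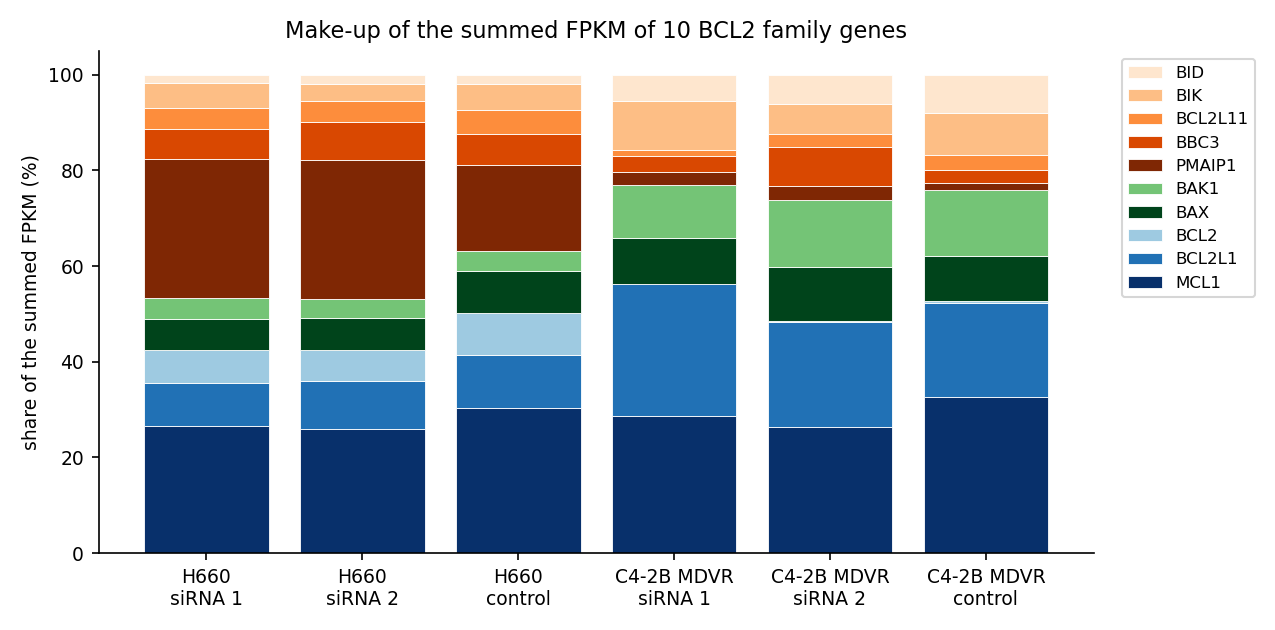
Share of the summed FPKM of the 10 genes that each gene holds, in percent, in each of the 6 libraries. PMAIP1 holds 29.2% and 28.9% in the H660 knockdown libraries and 17.9% in the H660 control, and at most 3.02% in C4-2B MDVR, where BCL2L1 holds 19.8% to 27.6%.

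PLXND1 knockdown was then compared with the control siRNA within each line. PLXND1 itself stood at 83.5% and 82.6% of the control in H660 and at 21.2% and 41.8% in C4-2B MDVR. Effects compared between the lines thus come from unlike knockdowns. No member passed after adjustment over all genes, as no gene did in either line (0 of 15638, 0%, limma). At an unadjusted p under 0.05 there were 647 genes in H660 (4.14%), with 1 member, PMAIP1, and 921 in C4-2B MDVR (5.89%), with 3 members, PMAIP1, BAX and BCL2L1. By voom on the recovered fragments 0 passed, with 558 and 893 at that level. With 1 control in each line, the spread came from the pairs of different siRNAs, and the lone control was assumed to vary like them. Ratios for siRNA 1 and siRNA 2 share their control library. They are given with 95% intervals that cover counting error only, not scaling. Rescaling to the protein-coding nuclear sum moved C4-2B MDVR differences of MCL1 from 0.27 to 0.17 and BAK1 from 0.33 to 0.23 log2 units. That of BID went from 0.08 to −0.02, and the median of all genes went from 0.02 to −0.03.

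PMAIP1 had the highest ratio of mean FPKM of the 10 in each line, at 1.87 in H660 and 2.93 in C4-2B MDVR, where BBC3 followed at 2.90. In H660 it stood at 1.91 times the control with siRNA 1 (1.80 to 2.02) and 1.84 times with siRNA 2 (1.73 to 1.95). In C4-2B MDVR it stood at 2.91 times (2.31 to 3.70) and 2.95 times (2.32 to 3.78). The siRNAs gave nearly the same level within each line, with siRNA 1 over siRNA 2 at 1.04 (0.989 to 1.09) in H660 and 0.986 (0.825 to 1.18) in C4-2B MDVR. The mean difference was 0.88 ± 0.14 log2 units in H660 (limma adjusted p = 0.862) and 1.21 ± 0.14 in C4-2B MDVR (adjusted p = 0.411). The difference between these effects, −0.33 ± 0.20 (H660 minus C4-2B MDVR), did not pass (adjusted p = 0.985).

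BBC3, the other BH3-only gene with high ratios, differed between the siRNA 1 and siRNA 2 libraries, each of which is a single library in its line. In C4-2B MDVR it stood at 1.71 times the control with siRNA 1 (1.46 to 1.99) and 4.10 times with siRNA 2 (3.58 to 4.72). In H660 it stood at 1.13 times (1.03 to 1.23) and 1.41 times (1.29 to 1.53). The level with siRNA 2 was above that with siRNA 1 in both lines, and in C4-2B MDVR siRNA 1 over siRNA 2 was 0.416 (0.370 to 0.466). The mean difference of 1.23 ± 0.52 log2 units in C4-2B MDVR therefore had a wide error (limma adjusted p = 0.866), and in H660 it was 0.31 ± 0.52.

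BAX lay on different sides of the control in the 2 lines. It stood at 0.887 (0.808 to 0.972) and 0.896 (0.819 to 0.980) of the control in H660, and at 1.47 times (1.34 to 1.62) and 1.67 times (1.52 to 1.84) in C4-2B MDVR. The log2 difference was −0.16 ± 0.16 in H660 and 0.62 ± 0.16 in C4-2B MDVR (limma adjusted p = 0.743), and the difference between the effects was −0.77 ± 0.22 (unadjusted p = 0.0220, adjusted p = 0.985). Of all genes, 4.48% reached that unadjusted level for the difference between lines, and BAX was the 1 member to do so. The other effector, BAK1, stood at 1.17 (1.02 to 1.34) and 1.07 (0.934 to 1.22) in H660 and at 1.16 (1.06 to 1.26) and 1.39 (1.28 to 1.52) in C4-2B MDVR.

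BCL2L1 was close to its control in H660, at 0.951 (0.885 to 1.02) and 1.03 (0.963 to 1.10). The C4-2B MDVR level was 2.03 times the control (1.93 to 2.15) with siRNA 1 and 1.54 times (1.45 to 1.64) with siRNA 2, a mean of 0.80 ± 0.22 log2 units (limma adjusted p = 0.764). The difference between the lines, −0.82 ± 0.31, did not pass (adjusted p = 0.985, unadjusted p = 0.0526). Here siRNA 1 gave the higher level, 1.32 times that with siRNA 2 (1.25 to 1.39), the reverse of BBC3.

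MCL1 stood at 1.03 (0.989 to 1.06) and 0.975 (0.941 to 1.01) of the control in H660 and at 1.28 (1.23 to 1.34) and 1.14 (1.09 to 1.19) in C4-2B MDVR. BCL2 stood at 0.911 (0.874 to 0.950) and 0.826 (0.792 to 0.862) in H660. In C4-2B MDVR, where it was scarce, it stood at 0.643 (0.451 to 0.911) and 1.16 (0.846 to 1.59). The guardians thus had no shared direction across lines and siRNAs.

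The remaining BH3-only genes differed between the single siRNA libraries or lay near the control. BIK stood at 1.17 (0.977 to 1.41) and 0.763 (0.624 to 0.931) in H660 and at 1.68 (1.44 to 1.97) and 0.980 (0.810 to 1.18) in C4-2B MDVR. The level with siRNA 1 was 1.54 times that with siRNA 2 in H660 (1.27 to 1.87) and 1.71 times in C4-2B MDVR (1.44 to 2.04). BCL2L11 stood at 1.01 with either siRNA in H660, and at 0.671 (0.592 to 0.760) and 1.26 (1.13 to 1.41) in C4-2B MDVR. It thus lay on both sides of the C4-2B MDVR control. BID stood at 0.994 (0.860 to 1.15) and 1.09 (0.950 to 1.25) in H660 and at 1.03 (0.942 to 1.12) and 1.09 (1.00 to 1.20) in C4-2B MDVR.

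**Figure D3:**
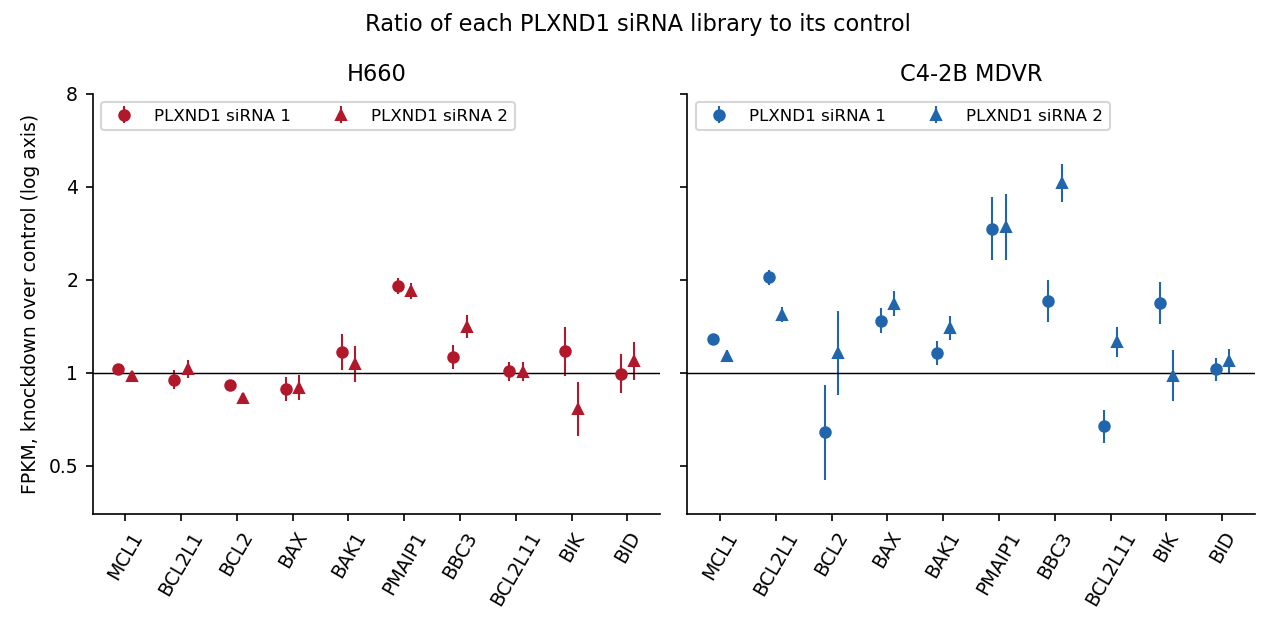
Ratio of each PLXND1 siRNA library to the control of its line on a log axis, for the 10 genes, with 95% binomial intervals that cover counting error only. PMAIP1 lies at 1.84 to 1.91 in H660 and 2.91 to 2.95 in C4-2B MDVR, BAX lies below 1 in H660 and above 1 in C4-2B MDVR, and the siRNAs part most for BBC3 and BCL2L11 in C4-2B MDVR.

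By size alone, a gene was counted where both siRNAs gave at least 1 log2 unit on the FPKM + 1 scale in the same direction. In C4-2B MDVR 105 genes were higher by that rule (0.671% of those tested) and 61 lower (0.390%), and PMAIP1 was the 1 member among them. In H660 59 genes were higher (0.377%) and 56 lower (0.358%), with no member. The median of the 10 genes was 0.34 log2 units in C4-2B MDVR, against 0.02 for all genes, and 0.01 in H660, against −0.01. Since the genes were chosen with results of these libraries known, nothing is read from these medians.

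Of 13 further family genes 8 were tested, and 1 was called higher and 5 lower in H660, where 20.1% of all genes tested were called higher and 17.9% lower. The median line difference of the 8 was −1.23 log2 units, against −0.00 for all genes. BMF, a BH3-only gene whose protein is held at the cytoskeleton, had 91.3 and 93.4 FPKM in the H660 knockdown libraries and 106 FPKM in the control, against 1.78 and 0.972 FPKM in the C4-2B MDVR knockdown libraries and 1.33 FPKM in the control. Its mean was 71.3 times as high in H660 (5.39 ± 0.15 log2 units), and its H660 level was above that of every one of the 10 genes. BOK, an effector relative, was at −2.82 ± 0.10, BCL2L12 at −2.33 ± 0.22 and BNIP3, a receptor for the removal of mitochondria, at −1.86 ± 0.13. In either knockdown comparison 0 of the 8 passed.

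**Figure D4:**
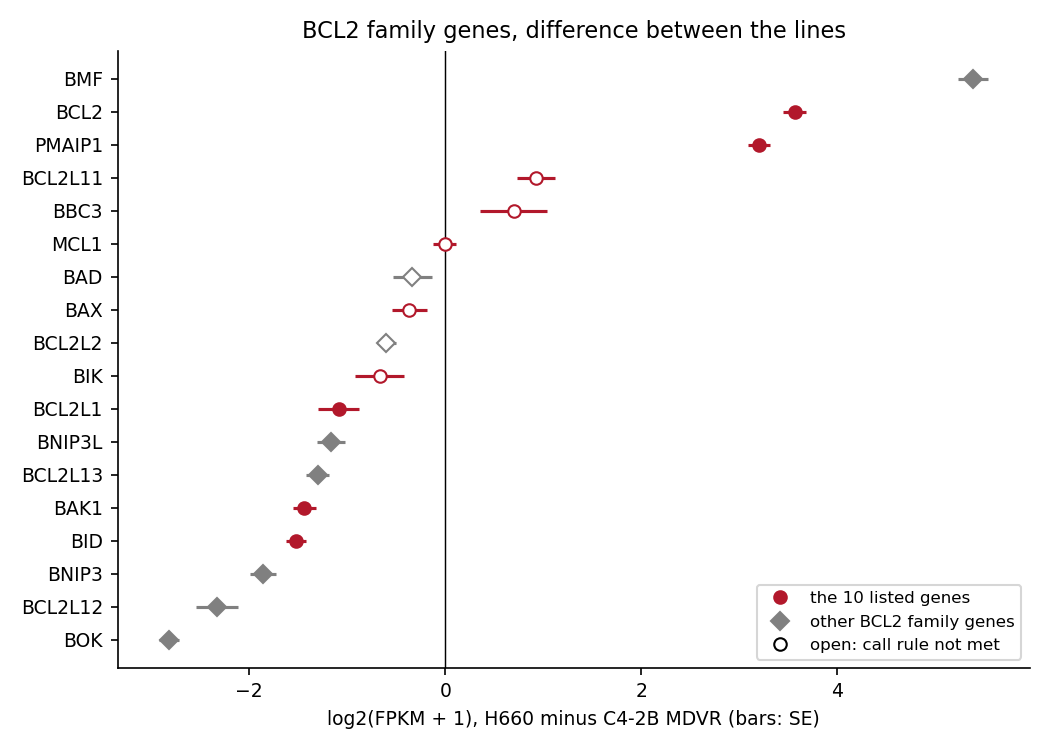
Difference in log2(FPKM + 1) between H660 and C4-2B MDVR (positive: higher in H660) for the 10 genes and the 8 further family genes tested, with SE from limma. Filled symbols met the call rule. BMF (5.39), BCL2 (3.56) and PMAIP1 (3.20) are the genes called higher in H660, and BOK (−2.82) lies lowest. BCL2 passed the filter on low values through H660 alone, so its filled symbol is a description.

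The machinery around the family was counted from lists, and each count of calls between the lines below stands against 38.0% of all genes tested. The counts include genes that passed the filter on low values through 1 line alone. Of 13 apoptosome and caspase genes 12 were tested, with 4 called higher in H660 and 1 lower, a share near that background. Among them CASP6 (1.43 ± 0.20), CASP10 (1.12 ± 0.21) and APAF1 (1.06 ± 0.12), genes of the caspase cascade, were higher in log2 units. CYCS, which encodes cytochrome c, was lower (−1.01 ± 0.19). CASP10 passed the filter through H660 alone, with a mean of 0.772 FPKM in the other line. The CASP10 difference is given as a description. Of 7 inhibitors of apoptosis 5 were tested and 1 was called, BIRC3 (1.27 ± 0.29). Of 7 outer membrane genes 6 were tested and 1 was called, the channel gene VDAC3 (−1.31 ± 0.10).

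Of 12 death receptor genes and adaptors 10 were tested, with 3 called higher in H660 and 4 lower (20.1% and 17.9% of all genes). TNFRSF10D, a decoy receptor for TRAIL, was listed at 0 in all H660 libraries and at 16.2, 17.9 and 12.3 FPKM in the C4-2B MDVR siRNA 1, siRNA 2 and control libraries. It passed the filter through C4-2B MDVR alone. The TRAIL receptor gene TNFRSF10B was at −2.16 ± 0.20 log2 units, the TRAIL gene TNFSF10 at 2.08 ± 0.22 and the kinase gene RIPK1 at 1.77 ± 0.11. With BID, the link from these receptors, also lower in H660, the receptor TNFRSF10B had 10.1 and 12.1 FPKM in the H660 knockdown libraries and 11.4 FPKM in the H660 control, and 58.6 and 71.2 FPKM in the C4-2B MDVR knockdown libraries and 36.9 FPKM in the control.

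Of 17 upstream regulators 15 were tested, with 5 called higher in H660 and 1 lower, again near the background of 38.0%. Among those higher were TP73 (2.86 ± 0.16), which encodes a transcription factor, IRF1 (2.65 ± 0.25) and JUN (1.63 ± 0.21), transcription factors of interferon and stress signalling. TP73 and IRF1, with C4-2B MDVR means of 0.672 and 0.926 FPKM, passed the filter through H660 alone. Their differences are given as a description.

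Of the 6 lists, 0 genes passed in either knockdown comparison (limma). The value furthest from the control among the upstream regulators was that of DDIT3, which encodes the stress factor CHOP. It had 68.3 and 78.0 FPKM in the H660 knockdown libraries and 41.9 FPKM in the H660 control, and 19.8 and 66.0 FPKM in the C4-2B MDVR knockdown libraries and 9.23 FPKM in the control. It was 0.79 ± 0.72 log2 units in H660 and 1.87 ± 0.72 in C4-2B MDVR, with siRNA 2 above siRNA 1 in both lines, as for BBC3. CYCS stood at 0.65 ± 0.16 in H660 and −0.18 ± 0.16 in C4-2B MDVR. FAS (0.88 ± 0.17) and TNFRSF10B (0.79 ± 0.21) had the highest values among death receptors in C4-2B MDVR, against 0.23 ± 0.17 and −0.03 ± 0.21 in H660.

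The protein-coding genes with the pattern most like a member over the 6 libraries were found by the root mean square difference of log2(FPKM + 1), after each gene's own mean was subtracted, among 11688 genes. For PMAIP1 they were GDF15, a stress-induced cytokine (0.232), HLA-B, a class I antigen-presenting gene whose reads can be shared with its relatives (0.310), and CA11 (0.315). GDF15 had 843 and 1018 FPKM in the H660 knockdown libraries and 584 FPKM in the H660 control, and 90.4 and 148 FPKM in the C4-2B MDVR knockdown libraries and 47.3 FPKM in the control. For BCL2 the nearest genes were ERV3-1 (0.0640), CERK (0.0658) and ALOX5 (0.0667), all high in H660 and scarce in C4-2B MDVR. For BIK they were CARNS1 (0.103), SH3RF1 (0.127) and SERTAD3 (0.132), each highest in the C4-2B MDVR siRNA 1 library.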

How the data were processed

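The deposited values are FPKM, computed by the authors per Ensembl gene ID; HISAT, Cufflinks and the build hg18 are named in the submitters' processing notes, with no versions. Names, exon lengths and coordinates of all 58735 IDs were found in GENCODE release 29 (GRCh38). FPKM times exon length gave whole multiples of 1 step per library (tolerance 0.05 fragments, 100.0% of genes with at most 100 fragments), from which fragments were recovered for 95% exact Poisson (level) and binomial (ratio) intervals. The total implied by the step was 0.92 and 0.93 times the recovered total in the C4-2B MDVR knockdown libraries, 1.01 in their control and 1.07 to 1.08 in H660; the deposited FPKM were not adjusted for it.

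The 15638 genes that averaged 1 FPKM or more in the 3 libraries of either line were fitted on the log2(FPKM + 1) scale by limma (3.58.1, R 4.3.3; two-sided moderated test, intensity trend, Benjamini-Hochberg threshold 0.05 over all genes tested). Knockdown effects and their difference came from 4 group means (2 residual degrees of freedom). The line difference came from an additive fit with treatment (3 residual degrees of freedom), and its call also required 1 log2 unit. P-values measure the spread between these libraries, which may be technical. The script was checked on simulated data. Alternatives were a pseudocount of 0.1, no filter or a minimum of 5 FPKM, quantile normalization, rescaling to the summed FPKM of protein-coding nuclear genes, no trend, a replicate block, limma's voom on recovered fragments (with TMM factors computed from the published formula) and leaving out each library.

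The 10 genes, the lists and the tests were chosen with earlier results of these data known. All 10 genes are named, with up to 4 genes of each list by size of difference and the 3 genes nearest in pattern to PMAIP1, BCL2 and BIK. Single genes beyond these are named for the checks of the labels. A few genes that these rules name, and a promoter motif, are not reported here. BH3 stretches were cut from APPRIS principal transcripts, promoters from a RefSeq table that matched 8 of the 10.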

Additional observations from a re-analysis of the deposited data

Results flagged for a closer look

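For BAX both siRNA libraries lay on one side of the control in one line and on the other side in the other line. The effect was −0.16 ± 0.16 log2 units in H660 and 0.62 ± 0.16 in C4-2B MDVR, and their difference was −0.77 ± 0.22 (limma, unadjusted p = 0.0220, adjusted p = 0.985 over all genes). Of all genes, 4.48% had an unadjusted p under 0.05 for such a difference. The differences of BBC3 (−0.92 ± 0.73) and BCL2L1 (−0.82 ± 0.31) were larger, at unadjusted p of 0.272 and 0.0526 (limma, adjusted p = 0.985 each). Both H660 knockdown libraries were below their control and both C4-2B MDVR knockdown libraries above theirs for BAX. The share of all genes on opposite sides in this way was not counted, and the siRNA libraries of a line share their control. The BAX difference between the effects ranged from −0.86 to −0.68 over 12 alternatives. The mitochondrial share of fragments, which also set the C4-2B MDVR control apart from its knockdown libraries, was not tested as a part of it. Nor was the depth of knockdown, with PLXND1 at 83.5% and 82.6% of the control in H660 and 21.2% and 41.8% in C4-2B MDVR.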

How the results depend on the processing

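The count of genes passing in the knockdown comparisons moved from 0 only under some settings. In C4-2B MDVR it was 851 with no filter and 3 with a minimum of 5 FPKM. In H660 it was 876 with no filter, 2 with a minimum of 5 FPKM, and 1 each with a pseudocount of 0.1, quantile normalization and the rescaling. Leaving out a library gave 0 to 49 in H660 (49 without H660 knockdown replicate 2) and 0 in C4-2B MDVR. For the difference of the effects it was 1372 with no filter. PMAIP1 was called with no filter in both lines and under no other setting, with a range of 0.86 to 0.94 log2 units in H660 and 1.10 to 1.51 in C4-2B MDVR. The cause of the counts without the filter was not tested.

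The 5946 genes called between the lines became 3796 with a minimum of 5 FPKM, which tests fewer genes, and 5893 to 6066 without 1 library. Genes at least 2-fold from the control with both siRNAs numbered 166 in C4-2B MDVR and 470 with a pseudocount of 0.1, 261 with no filter and 75 with a minimum of 5 FPKM. In H660 they numbered 115, and 326, 209 and 27 in the same order. Of the 10 genes, 9 kept the sign of the line difference in all 14 alternatives, with MCL1 the exception. For knockdown 6 did so in C4-2B MDVR and 5 in H660, over 13 alternatives each. The C4-2B MDVR values of BIK (−0.03), BCL2 (0.06) and BCL2L11 (0.28) turned without C4-2B MDVR knockdown replicate 1.

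The replicate numbers mark the siRNA, with the same labels in both lines. The lines' differences of siRNA 1 and siRNA 2 had a correlation of −0.00 over 15638 genes. Each difference rests on single libraries, so this value cannot show that the siRNAs had no shared effects. With that number as a replicate block, 5993 genes were called between the lines, 1 gene for knockdown in H660 and 0 in C4-2B MDVR and for the difference of effects. No member changed its call. Without a line's only control no knockdown value could be had in that line.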
